A study of Mus musculus with 44 samples.

Results

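Iron is carried, taken up, stored and released by a small set of proteins, and 10 of the genes that encode or control them were followed here in mouse liver and skeletal muscle. They were Hamp, Hamp2, Trf, Tfrc, Tfr2, Slc40a1, Slc39a14, Fth1, Ftl1 and Hfe, listed by symbol and all found by their Ensembl identifier among the 38202 genes counted. RNA-Seq was performed on poly(A) RNA of liver and skeletal muscle from the same 11 WT and 11 KO mice, which gave 44 libraries. The mice were males on the C57BL/6N background, killed at 20 weeks of age after an overnight fast, and every animal of both genotypes had received a high-fat diet (HFD) for 15 weeks, so no lean group stands beside them. KO mice carried a constitutive whole-body CRISPR deletion in Slc16a13, a monocarboxylate transporter gene, and WT mice were their littermates.

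Hepcidin, the peptide hormone encoded by Hamp, is secreted by hepatocytes and triggers the degradation of ferroportin (Slc40a1), the cellular iron exporter. Hepatocytes adjust Hamp to iron load through BMP and SMAD signalling, with hemojuvelin, HFE and transferrin receptor 2 as partners, and to inflammation through STAT3. Inside cells, iron regulatory proteins bind hairpins in transcript ends when iron is scarce, which blocks translation of ferritin and ferroportin and stabilises the transcript of transferrin receptor 1 (Tfrc).

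The labels were first checked on the deleted gene. Slc16a13 had 99 to 302 reads per library in WT liver and 0 to 8 in the livers of the KO mice. It had 4 to 22 in WT muscle and 11 to 40 in the muscle libraries labelled KO, so in muscle the count was not lower. The paper reports only marginal expression in skeletal muscle, and a deletion of the proximal promoter and first exons. Counts here are per gene, so the part of the gene that gave the muscle reads is not known. Why they did not fall was not tested. Hepatocyte and muscle markers were abundant in the tissue named on each label. Library totals lay between 20150712 and 35218243 reads. In 4 KO livers (animals 532, 583, 602 and 611) log2 expression relative to the mean of all livers fell with log2 gene length. Their slopes lay between -0.53 and -0.08, whereas WT livers had slopes between 0.04 and 0.10. The members' KO against WT differences in liver are therefore given with and without these 4 livers. Pooled liver to muscle ratios include them. In whole tissue, fewer cells of a type and less RNA per cell cannot be told apart.

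Hairpins of the kind that iron regulatory proteins bind are printed first, as found by a strict sequence pattern. All protein-coding transcripts of each gene (GENCODE M21, GRCm38) were searched on their own strand for the loop CAGTGN, N being A, C or T. The loop had to be flanked by 5 bases on each side that pair with each other, G with T pairs allowed. An unpaired C had to come before the first 5. The sites printed below are those in the longest protein-coding transcript of each member. The pattern occurred in the untranslated regions of 4 of the 10 members, in none of the 65 further iron and haem genes listed, and in 123 of 21901 protein-coding genes (0.562%). Hairpins with a mismatch or an extra base among the 5 pairs, or with another loop, were not searched. A gene without the pattern may therefore still carry a hairpin that these proteins bind. Tfrc held 4 of them, at chr16:32631220-32631246, chr16:32631599-32631625, chr16:32631664-32631690 and chr16:32631711-32631737 in the 3′ UTR on the plus strand. Slc40a1 held it at chr1:45925466-45925492 on the minus strand, Fth1 at chr19:9982733-9982759 on the plus strand and Ftl1 at chr7:45459780-45459806 on the minus strand, each in the 5′ UTR. Capitals mark the loop, and the letters are DNA, 5′ to 3′.
Tfrc, site 1: attatcggaagCAGTGCcttccataat
Tfrc, site 2: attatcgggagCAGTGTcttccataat
Tfrc, site 3: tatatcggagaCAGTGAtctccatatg
Tfrc, site 4: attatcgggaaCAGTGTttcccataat
Slc40a1: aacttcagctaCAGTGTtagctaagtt
Fth1: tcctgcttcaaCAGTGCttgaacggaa
Ftl1: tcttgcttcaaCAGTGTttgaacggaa

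Levels were compared between genes per length, as RPKM (the reads of a gene scaled to its length and to library size). In WT liver, Trf, which encodes the plasma iron carrier transferrin, was the most abundant member (median 6524, range 6010 to 7532 RPKM, n = 11). Ferritin light chain Ftl1 (median 2361 RPKM), ferritin heavy chain Fth1 (1643 RPKM) and Hamp (1016 RPKM) followed, and in this order each overlapped its neighbour in range while Trf stood above all of them. Tfr2 (133 RPKM), Slc39a14 (69.7 RPKM), Slc40a1 (54.9 RPKM), Hfe (36.5 RPKM), Hamp2 (17.7 RPKM) and Tfrc (3.85 RPKM) came next. Slc39a14 and Slc40a1 overlapped in range, as did Hfe with Hamp2 and Hamp2 with Tfrc, so these pairs have no clear order. The order in KO liver was the same except that the overlapping Slc40a1 and Slc39a14 changed places.

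In WT muscle the order was a different one. Fth1 led (median 1118, range 964 to 1229 RPKM) and Ftl1 was second at 126 RPKM, with no overlap. Trf (27.6 RPKM) overlapped both Slc40a1 (17.7 RPKM) and Hfe (12.8 RPKM) in range, while Slc40a1 lay above Hfe. Tfrc (8.71 RPKM) and Slc39a14 (3.72 RPKM) followed without overlap. Tfr2 was near the floor at 0.095 RPKM, and the medians of Hamp and Hamp2 were 0.

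**Figure D1:**
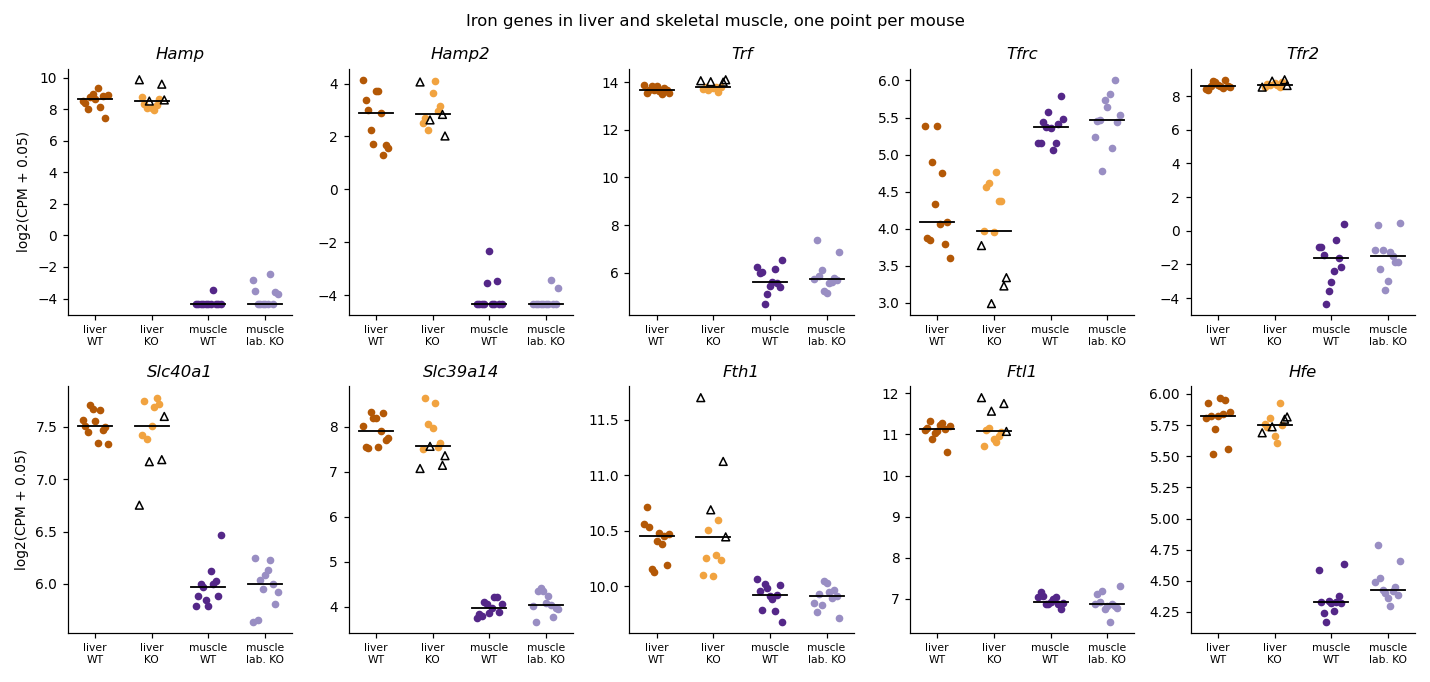
Expression of the 10 iron genes as log2(CPM + 0.05), where CPM is the read count scaled to library size by TMM; each point is a mouse, bars are medians of 11 mice, open triangles are the 4 KO livers whose expression fell with gene length. WT and KO points overlap in every panel. For every gene but Tfrc all liver points lie above all muscle points, with medians farthest apart for Hamp, Hamp2, Trf and Tfr2. Tfrc lies higher in muscle, with some overlap.

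The contrast of WT liver with WT muscle asked where each gene is expressed. Its main fit took liver and muscle of the same mouse as independent, and the animal as replicate block was an alternative. Of the 10 members, 9 were higher in liver and Tfrc was higher in muscle (adjusted p under 0.05, Benjamini-Hochberg adjustment of edgeR's quasi-likelihood test). Of all 13907 genes tested, 45.5% were called higher in liver and 45.5% higher in muscle. The members' median log2 difference was 4.12 against 0.004 over all genes tested.

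Few hepcidin reads were found in muscle. Over the 11 WT muscles 1 read fell on Hamp, in animal 612, against 113012 reads in the WT livers. Scaled to library totals this made a liver to muscle ratio of 119115 (exact 95% counting interval 21378 to 4704819, counting error only). In the muscle libraries labelled KO 8 reads fell on Hamp, 0 to 3 per library, and the ratio was 15509 (7871 to 35924). Hamp2 had 6 reads in WT muscle and 2 in the libraries labelled KO, with ratios of 380.0 (174 to 1037) and 1269 (351 to 10488). Muscle Hamp was thus 0.00084% of its liver level in WT mice and 0.0064% in the mice labelled KO, and albumin (Alb), made by hepatocytes, was at 0.0013% and 0.0029%. The summed level of 10 hepatocyte markers in muscle was 4.80 to 14.1 CPM in WT libraries and 4.84 to 56.7 CPM in those labelled KO, none of the 10 was at 0 in either group, and over those 11 libraries Hamp and Alb had r = 0.788 (permutation p = 0.00307, adjusted p = 0.0368, r = 0.702 without the 2 farthest) and rho = 0.744 (permutation p = 0.013, adjusted p = 0.078), so the relation, on 8 reads with 6 libraries at 0, did not pass with both coefficients. In WT muscle r was 0.314 (permutation p = 0.274).

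Transferrin and its hepatic sensor were also liver genes. Trf ranged from 11672 to 14958 CPM in WT liver (median 12995) and from 26 to 91.9 CPM in WT muscle (median 48.7), a log2 difference of 7.97 (SE 0.21, adjusted p = 6.8e-22, edgeR's quasi-likelihood test). Muscle Trf was 0.414% of the liver level, with 16292 reads behind it, and thus lay far above the share of albumin. Tfr2 ranged from 335 to 490.0 CPM in WT liver and from 0 to 1.25 CPM in WT muscle, a log2 difference of 10.14 (SE 0.27, adjusted p = 5.6e-22, edgeR's quasi-likelihood test).

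Tfrc, which imports transferrin-bound iron, went the other way. It ranged from 12.2 to 41.7 CPM in WT liver (median 16.9) and from 33.5 to 55.4 CPM in WT muscle (median 41.4). The groups overlapped through 2 livers, those of animals 516 (41.6 CPM) and 567 (41.7 CPM). The log2 difference was -0.81 (SE 0.19, adjusted p = 3.1e-04, edgeR's quasi-likelihood test). Pooled muscle Tfrc was 186% of the liver level in WT mice and 282% in the mice labelled KO. The latter includes the 4 KO livers of negative slope, 3 of which had Tfrc below all WT livers, and was not computed without them. The interaction of genotype and tissue did not pass for Tfrc (adjusted p = 0.326, edgeR's quasi-likelihood test).

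Ferritin, the iron store, was split between its subunits. Fth1 in muscle was 67.7% of its liver level and Ftl1 5.49%, with log2 differences of 0.58 (SE 0.07) and 4.21 (SE 0.08). With gene length removed that of Fth1 was 0.23 (SE 0.07), where the median of all genes moved from 0.004 to -0.18. Their adjusted p-values from edgeR's quasi-likelihood test were 3.0e-08 and 9.8e-25. Of the 884 stretches of read length in the Ftl1 transcript, 66.2% also occur in ferritin pseudogenes such as Ftl1-ps1 and Ftl1-ps2, so Ftl1 counts depend on how unique reads were assigned. For Fth1 that share was 1.63%.

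Of the other members, Slc39a14, the ZIP14 importer of iron not bound to transferrin, was 6.34% of its liver level in muscle, with a log2 difference of 4.03 (SE 0.11). Slc40a1 was 34.2% and Hfe, the haemochromatosis protein that partners with transferrin receptors, 35.6%, with log2 differences of 1.61 (SE 0.07) and 1.52 (SE 0.06), the latter 0.97 (SE 0.05) with gene length removed. All 3 passed edgeR's quasi-likelihood test, with adjusted p-values of 1.0e-21, 1.2e-17 and 4.1e-18.

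**Figure D2:**
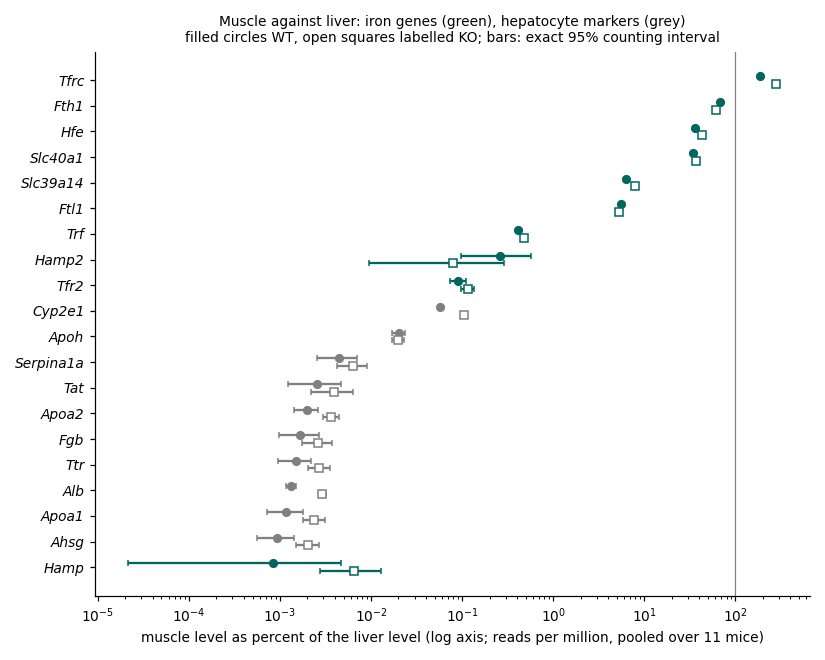
Muscle level as percent of liver level (log axis), from reads scaled to library totals and pooled over 11 mice per genotype; green marks the iron genes, grey the hepatocyte markers, filled circles WT, open squares labelled KO, bars exact 95% counting intervals, and the vertical line equal levels. Tfrc alone lies above 100%, at 186% in WT mice, and Trf, at 0.414%, lies above all hepatocyte markers, whereas the point of Hamp lies below all of them in WT mice (0.00084%, from 1 read).

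The second question was whether deletion of Slc16a13 changed these genes in the liver. No member passed the threshold between KO and WT liver, and of all 13005 genes tested 0.0231% did. At an unadjusted p under 0.05, 1 of the 10 members (Trf) differed, against 12.9% of all genes. Without the 4 livers of negative slope none of the 10 passed the threshold (0.0227% of genes did) and 0 of 10 had an unadjusted p under 0.05, against 2.96% of all 13210 genes tested.

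Hepcidin varied strongly from mouse to mouse. Hamp (ENSMUSG00000050440, chr7:30942368-30944032) ranged from 173 to 636 CPM in WT liver (median 405) and from 249 to 930 CPM in KO liver (median 365). The 2 KO values above all WT values, 930 and 766 CPM, came from animals 532 and 602, which are among the 4 livers of negative slope. The log2 fold change was 0.11 (SE 0.23, 95% interval -0.37 to 0.59, adjusted p = 0.797, edgeR's quasi-likelihood test), and without these 4 livers it was -0.30 (SE 0.20, 95% interval -0.71 to 0.11, adjusted p = 0.999). The direction for Hamp thus changed with the libraries used.

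Hamp2, the second mouse hepcidin gene (ENSMUSG00000056978, chr7:30922372-30924681), was far lower and more variable. It ranged from 2.44 to 17.6 CPM in WT liver (median 7.29), a 7.23-fold span, and from 4 to 17.2 CPM in KO liver (median 7.07), within the WT range in all 11 mice. The log2 fold change was 0.18 (SE 0.34, adjusted p = 0.771, edgeR's quasi-likelihood test) and without the 4 livers 0.21 (SE 0.38). Its SD of log2 CPM over WT livers was 1.01, larger than in 98.9% of the genes tested. For Tfrc (0.64) and Hamp (0.53) these shares were 96% and 93.2%, and for Trf (0.12) 28.8%.

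The promoters of both hepcidin genes are shown because the genes differed in level while the sequences before their RefSeq starts are similar. RefSeq promoters (GRCm38.p6) were searched on both strands for GGCGCC, the core of the BMP-responsive element described for Hamp, and for TTCNNNGAA, the STAT pattern. The stretch of Hamp lies at chr7:30944098-30944157 and that of Hamp2 at chr7:30924247-30924306, both on the minus strand, starting 128 and 125 bases before the RefSeq start. In GENCODE M21 the stretch of Hamp also lies upstream of the gene (chr7:30942368-30944032). That of Hamp2 lies inside the Hamp2 gene (chr7:30922372-30924681), so RefSeq and GENCODE place the start of Hamp2 differently. Which start is used in liver was not tested. Capitals mark matches, which do not overlap.
Hamp: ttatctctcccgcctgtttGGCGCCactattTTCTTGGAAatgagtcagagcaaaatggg
Hamp2: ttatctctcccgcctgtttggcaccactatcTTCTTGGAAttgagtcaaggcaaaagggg
The stretches were identical at 54 of 60 bases, and the whole upstream windows at 227 of 247 (91.9%). Counted from 1 at the 5′ end of the stretch with the Hamp base first, the differences were G23A, T31C, A41T, G49A, A50G and T57G, of which G23A falls inside GGCGCC. Of 32851 promoters 9.59% held GGCGCC and 7.02% TTCNNNGAA. Among the other members with a promoter in the table, Tfrc held GGCGCC in 1 of its 2 promoters and Tfr2, Fth1, Ftl1 and Hfe held neither pattern. Of 326 stretches of read length in the Hamp transcript 3 also occur in Hamp2.

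No relation of Hamp with Hamp2 was detected over WT livers (Pearson r = 0.062, permutation p = 0.859, Spearman rho = -0.082, permutation p = 0.818, n = 11, r = 0.337 without the 2 mice farthest from the median). Partners of Hamp were examined as well. With Id1, a SMAD target gene, r was 0.370 (permutation p = 0.264, adjusted p = 0.658) and rho 0.400 (permutation p = 0.224, adjusted p = 0.747) in WT liver. In KO liver r was 0.390 (permutation p = 0.247), and 0.004 over the 7 livers without negative slope (exact permutation p = 0.995). Without the 2 mice farthest from the median of Id1, r was 0.377 in WT liver, 0.791 in KO liver and 0.92 over the 7. The r in KO liver thus depended on few mice, and the values without the 2 mice were not tested. Smad7, Bmp6 and the acute phase gene Saa1 gave r between 0.212 and 0.337 in WT liver. In KO liver r was -0.046 for Smad7, -0.543 for Bmp6 (permutation p = 0.0855) and 0.232 for Saa1, and over the 7 livers 0.467, 0.623 and -0.250. In CPM none of these relations passed its permutation test, and for Smad7, Bmp6 and Saa1 the sign in KO liver changed without the 4 livers. In the RPKM table r in all KO livers was -0.637 for Smad7 (permutation p = 0.035, adjusted p = 0.146) and -0.629 for Bmp6 (permutation p = 0.0365, adjusted p = 0.146).

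Transferrin (Trf, ENSMUSG00000032554, chr9:103204001-103230444) was the only member with an unadjusted p under 0.05. KO livers ranged from 12460 to 17573 CPM (median 14231), and the 4 livers of negative slope held the 4 highest values, 17085, 16601, 16402 and 17573 CPM, all above the WT maximum of 14958 CPM. The other 7 KO livers lay within the WT range. The log2 fold change was 0.17 (SE 0.07, unadjusted p = 0.0216, adjusted p = 0.382, edgeR's quasi-likelihood test) with all mice and 0.05 (SE 0.06, adjusted p = 0.999) without the 4. An overlapping gene model, Gm20425, shares 78.1% of the read-length stretches of Trf, and reads in them cannot be assigned from sequence alone.

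The transferrin receptors did not pass the test either. Tfrc (ENSMUSG00000022797, chr16:32608920-32632794) ranged from 7.89 to 27.2 CPM in KO liver (median 15.7), and 3 KO livers, all of negative slope, fell below the WT minimum of 12.2 CPM. The log2 fold change was -0.40 (SE 0.25, 95% interval -0.91 to 0.12, adjusted p = 0.411, edgeR's quasi-likelihood test), and -0.09 (95% interval -0.61 to 0.42) without the 4 livers. Tfr2 (ENSMUSG00000029716, chr5:137569840-137587481) ranged from 335 to 490.0 CPM in WT and from 368 to 501 CPM in KO liver, with a log2 fold change of 0.08 (SE 0.07, 95% interval -0.08 to 0.23) with all mice and 0.05 (SE 0.08) without the 4. Hfe (ENSMUSG00000006611, chr13:23702034-23710854) was the steadiest in KO liver, 48.6 to 60.8 CPM within a WT range of 45.9 to 62.6 CPM, with a log2 fold change of -0.05 (SE 0.06, 95% interval -0.17 to 0.06) with all mice and -0.06 (SE 0.06) without the 4.

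Iron export and import genes spread out in both directions. Slc40a1 (ENSMUSG00000025993, chr1:45908068-45926523) ranged from 162 to 210.0 CPM in WT and from 108 to 220.0 CPM in KO liver. In KO liver 3 values lay below the WT range, all of negative slope, and 3 above it, none of negative slope. The log2 fold change was -0.05 (SE 0.10) with all mice and 0.09 (SE 0.07) without the 4. The 10 markers of Kupffer cells and macrophages, which also export iron, summed to 427 to 560 CPM in WT, 377 to 1332 CPM in KO and 377 to 601 CPM in the other 7 KO livers, with no marker at 0, and their part in the Slc40a1 values was not tested. Slc39a14 (ENSMUSG00000022094, chr14:70303469-70351425) ranged from 184 to 321 CPM in WT and from 134 to 400.1 CPM in KO liver, with log2 fold changes of -0.12 (SE 0.17) with and 0.11 (SE 0.17) without the 4 livers.

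Ferritin transcripts were widened upward in KO liver. Fth1 (ENSMUSG00000024661, chr19:9980598-9985098) ranged from 1117 to 1682 CPM in WT and from 1093 to 3326 CPM in KO liver, the highest in animals 532 (3326 CPM) and 602 (2233 CPM). Ftl1 (ENSMUSG00000050708, chr7:45457944-45459884) ranged from 1523 to 2556 CPM in WT and from 1685 to 3806 CPM in KO liver, and the 3 values above the WT range, in animals 532, 583 and 602, were all of negative slope. Their log2 fold changes were 0.22 (SE 0.16, adjusted p = 0.449) and 0.13 (SE 0.13, adjusted p = 0.560) by edgeR's quasi-likelihood test with all mice. Without the 4 livers they were -0.11 (SE 0.09) and -0.14 (SE 0.09), so both signs changed.

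The 4 livers therefore stood apart in opposite directions for short and long members. The gene length implied by counts and RPKM was 392 bases for Hamp, 866 for Fth1 and 958 for Ftl1, which were high in several of these livers, and 3380 for Slc40a1, 3886 for Slc39a14 and 4571 for Tfrc, which were low in them. Hamp2 (437 bases) and Hfe (1611 bases) stayed within the WT range in all 4, Tfr2 (2926 bases) was above it in 1, and Trf (2016 bases) was above it in all 4. Whether length slope or genotype set these values was not tested, and WT libraries of negative slope were not among the 11 livers, so the slope cannot be told apart from the KO group in them.

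**Figure D3:**
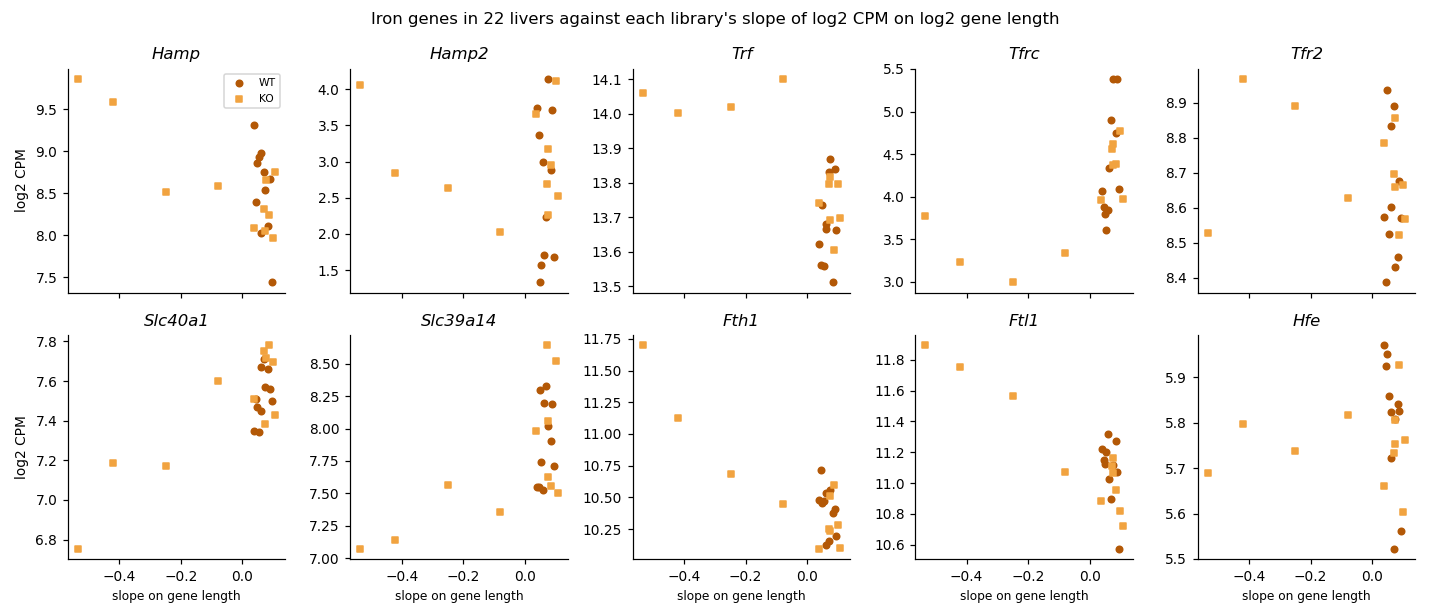
log2 CPM of each iron gene in 22 livers against that library's slope on log2 gene length, taken relative to the mean of all livers; circles are WT, squares KO mice. The 4 KO livers of negative slope (-0.53 to -0.08) lie to the left, with high Trf in all 4, high Fth1 in animals 532 and 602 and low Tfrc in 3 of them.

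**Figure D4:**
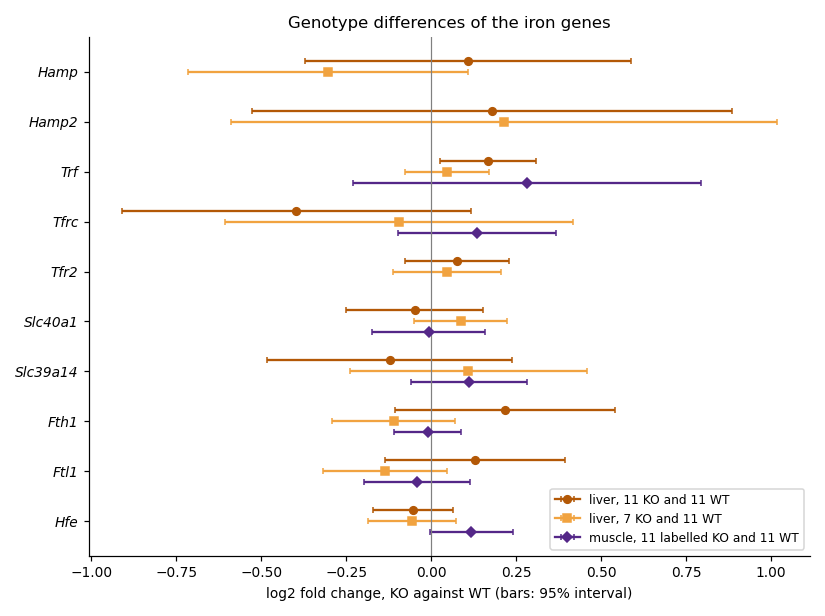
log2 fold change of KO against WT for each iron gene with its 95% interval, in all 22 livers (circles), without the 4 livers of negative slope (squares) and in muscle (diamonds, 7 genes tested). Intervals include 0 except for Trf in all livers (0.17), whose adjusted p was 0.382.

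In muscle 7 of the 10 members passed the filter on low counts, and Hamp, Hamp2 and Tfr2 did not. None of the 7 passed the threshold between the libraries labelled KO and WT, where 0.00754% of 13266 genes did. None had an unadjusted p under 0.05, against 8.58% of all genes tested. The nearest was Hfe, 18 to 24.8 CPM in WT (median 20.0) and 19.6 to 27.6 CPM in the libraries labelled KO (median 21.5), with 9 of 11 within the WT range. Its log2 fold change was 0.12 (SE 0.06, unadjusted p = 0.0578, adjusted p = 0.593, edgeR's quasi-likelihood test).

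Fth1 in muscle lay between 821 and 1071 CPM in WT libraries and within that range in all 11 labelled KO, with a log2 fold change of -0.01 (95% interval -0.11 to 0.09). Tfrc ranged from 27.3 to 64.4 CPM in the libraries labelled KO, wider than the 33.5 to 55.4 CPM in WT, with a log2 fold change of 0.13 (95% interval -0.10 to 0.37). The log2 fold changes of Slc40a1, Ftl1 and Slc39a14 were -0.01 (95% interval -0.17 to 0.16), -0.04 (-0.20 to 0.11) and 0.11 (-0.06 to 0.28). Tfr2 had 0 to 43 reads per WT muscle and 1 to 51 in those labelled KO.

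Trf had the widest spread of the 7 members tested in muscle. It ranged from 26 to 91.9 CPM in WT and from 35.8 to 167 CPM in the libraries labelled KO, and its SD of log2 CPM over WT muscles, 0.54, was larger than in 94% of genes. Animals 561 (167 CPM) and 611 (117 CPM) lay above the WT range. The log2 fold change was 0.28 (SE 0.25, 95% interval -0.23 to 0.79, adjusted p = 0.769, edgeR's quasi-likelihood test).

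Muscle Trf moved with the adipocyte gene Adipoq, a relation chosen after the muscle values were seen. Adipoq ranged from 21.9 to 84.1 CPM in WT muscle and from 30.4 to 220 CPM in the libraries labelled KO, and 561 and 611 again held the highest values. For Trf r was 0.972 in WT (permutation p = 1e-05, the smallest that 100000 resamples can give, adjusted p = 0.0001 over 10 relations, n = 11, r = 0.943 without the 2 mice farthest from the median), with rho = 0.991 (permutation p = 1e-05). In the libraries labelled KO r was 0.972 (permutation p = 5e-05, adjusted p = 0.00025, r = 0.836 without the 2 farthest) and rho 0.864 (permutation p = 0.00109). With Adipoq as a covariate the log2 fold change of Trf was 0.02 (SE 0.06). The 5 adipocyte markers summed to 74.5 to 274 CPM in WT and 105 to 691 CPM in the libraries labelled KO, with none at 0.

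In the muscle libraries labelled KO ferritin transcripts also moved with Adipoq, Ftl1 upward and Fth1 downward. In CPM neither passed with both coefficients after adjustment in WT muscle, where r of Ftl1 was close to that in the other group. For Ftl1 r was 0.683 (permutation p = 0.0215, adjusted p = 0.0430) in WT and 0.687 (permutation p = 0.0204, adjusted p = 0.0430) in the libraries labelled KO. Without the 2 farthest mice these values were 0.665 and 0.346. The rho of Ftl1 was 0.636 (permutation p = 0.0396, adjusted p = 0.0793) and 0.800 (permutation p = 0.00463). For Fth1 r was -0.903 in the libraries labelled KO (permutation p = 0.00011, adjusted p = 0.000367, rho = -0.891, permutation p = 0.00054, r = -0.866 without the 2 farthest) and -0.547 in WT (permutation p = 0.0814). Slc40a1 and Tfrc had adjusted permutation p-values between 0.222 and 0.839. In the RPKM table Ftl1 passed with both coefficients in WT and in the libraries labelled KO. There r in WT was 0.792 (adjusted permutation p = 0.0134) and rho 0.755 (adjusted permutation p = 0.0197). Fth1 in WT did not pass there either (r = -0.377, adjusted permutation p = 0.327).

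**Figure D5:**
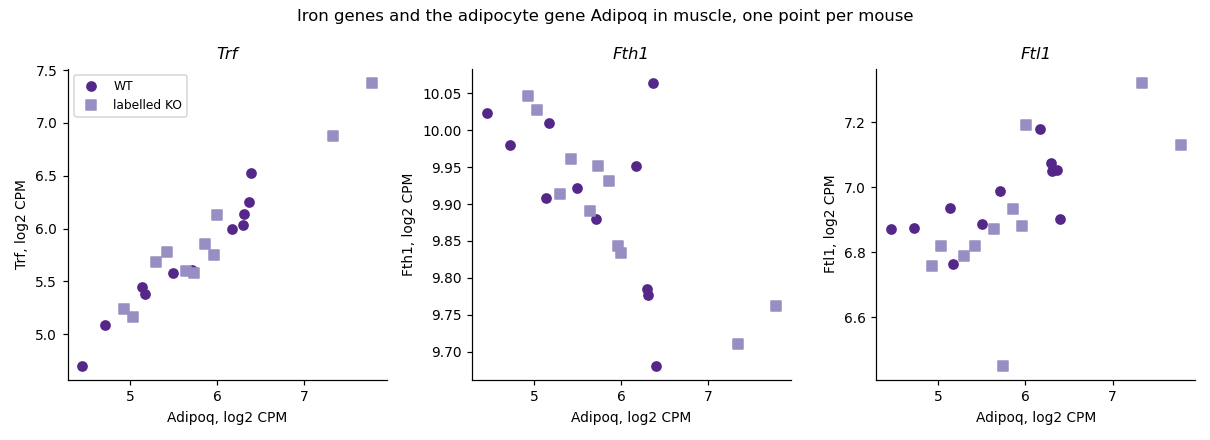
log2 CPM of Trf, Fth1 and Ftl1 against that of the adipocyte gene Adipoq in muscle, each point a mouse, circles WT and squares libraries labelled KO (11 each). Trf rises with Adipoq in both groups (r = 0.972 in each), and Fth1 falls with it in the libraries labelled KO (r = -0.903).

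Whether the genotype acted differently in both tissues was tested as an interaction over all 44 libraries. This main fit too took liver and muscle of the same mouse as independent. None of the 10 members passed the threshold (0.00678% of 14739 genes did) and none had an unadjusted p under 0.05 (16.2% of genes did). The smallest unadjusted p-values were 0.0589 for Hfe (log2 difference of fold changes -0.17, SE 0.09, adjusted p = 0.322) and 0.0628 for Tfrc (-0.53, SE 0.28, adjusted p = 0.326), both from edgeR's quasi-likelihood test. Without the 4 livers of negative slope again none was called (0.0133% of 14996 genes were).

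Relations of members with each other and with Id1, Smad7, Bmp6, Saa1 and Alb were examined over mice within a genotype, 24 in all, and none passed with both coefficients after adjustment. In WT liver Tfrc and Slc40a1 had r = 0.646 (permutation p = 0.0342, adjusted p = 0.164, r = 0.522 without the 2 farthest mice) and rho = 0.764 (permutation p = 0.00856, adjusted p = 0.0685). Fth1 and Ftl1 had r = 0.635 in WT liver (permutation p = 0.0325, adjusted p = 0.164), rho = 0.582 (permutation p = 0.0655), and r = 0.388 without the 2 farthest. In KO liver Fth1 and Ftl1 had r = 0.905 (permutation p = 0.00014, adjusted p = 0.00336) and rho = 0.800 (permutation p = 0.00483, adjusted p = 0.058), and over the 7 KO livers that exclude those of negative slope r was 0.493 (exact permutation p = 0.265), so the relation rested on the 4. Between liver and muscle Tfrc of the same mice no relation passed (r = -0.267 in WT, permutation p = 0.427).

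The genes most like Hamp over all 22 livers, by r of log2 CPM centred on genotype and with shared libraries, were Zfp593 (0.822), Aar2 (0.818), Lsm2 (0.807), Metrn (0.807) and Rnaset2b (0.802), which over the 18 livers without negative slope had r of 0.554 to 0.727. Those most like Tfrc were Tspyl2 (0.851), Jpt2 (0.818), Atad2 (0.805), Csnk1g3 (0.789) and Spred1 (0.787), with 0.709 to 0.846 over the 18 livers. These values are descriptions.

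Other genes of iron and haem handling were counted from 5 lists of 65 genes. Between KO and WT liver 0 of the 61 tested were called, 4 were higher and 1 lower at an unadjusted p under 0.05 (8.2%, against 12.9% of all genes), and their median log2 fold change was -0.05 against -0.005 over all genes. The smallest p was that of Slc25a37, mitoferrin 1, which carries iron into mitochondria. It ranged from 24.3 to 37.5 CPM in WT and from 20.8 to 34.7 CPM in KO liver, with a log2 fold change of -0.28 (SE 0.09, adjusted p = 0.382, edgeR's quasi-likelihood test). Among the higher ones were haptoglobin (Hp, log2 fold change 0.39), Hmox2 (0.26), which degrades haem, and Ppox (0.18), a haem synthesis enzyme. Without the 4 livers 0 of 62 were called and 0 were higher and 3 lower at an unadjusted p under 0.05 (4.84%, against 2.96% of all genes), with log2 fold changes of -0.17 for Slc25a37, 0.17 for Hp, 0.08 for Hmox2 and 0.06 for Ppox. In muscle 0 of 60 were called, with 4 higher and 2 lower at an unadjusted p under 0.05 (10%, against 8.58% of all genes). In the interaction 0 of 63 were called, with 5 higher and 6 lower at an unadjusted p under 0.05 (17.5%, against 16.2% of all genes).

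Between WT tissues 41 of 62 tested genes were higher in liver and 19 in muscle. Nearly every gene differs in this contrast, where 45.5% of all genes were called in each direction, and the list counts that follow are to be read against that share. Of the 14 regulators of hepcidin 4 were higher in liver and 10 in muscle. Tmprss6, the protease that restrains hepcidin by cleaving hemojuvelin, lay between 466 and 549 CPM in liver and between 0 and 0.0703 CPM in muscle. Hjv, hemojuvelin itself, was higher in muscle, with 500 to 675 CPM against 64.3 to 101 CPM in liver, a log2 difference of -2.77 (SE 0.08, adjusted p = 1.0e-20, edgeR's quasi-likelihood test). Its median per length was 295 RPKM in muscle and 42.2 RPKM in liver.

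Of the 6 SMAD response genes 5 were higher in liver, among them Id2 (log2 difference 5.97) and Atoh8 (2.37), and 1 in muscle. Of 15 uptake, export and reduction genes 12 were higher in liver and 2 in muscle, led by haemopexin (Hpx, 14.78), which binds haem in plasma, and ceruloplasmin (Cp, 7.37), the plasma ferroxidase. Of 11 sensing, storage and chaperone genes 10 were higher in liver and 1 in muscle. Among these, Aco1, which encodes iron regulatory protein 1, ranged from 215 to 282 CPM in liver and from 21.6 to 25.9 CPM in muscle, a log2 difference of 3.53 (SE 0.05), while for Ireb2, which encodes iron regulatory protein 2, it was 1.2 (SE 0.05). Ncoa4, the receptor that delivers ferritin to lysosomes, differed by 1.72 (SE 0.04). Of 16 mitochondrial iron and haem genes 10 were higher in liver, among them Cpox (3.26) and Alad (2.96), and 5 in muscle.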

How the data were processed

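The authors deposited raw read counts per gene (unique reads) and RPKM values scaled by them to length and library size. Aligner, counting program, build and annotation are not given in the sources used here. The 10 members, the gene lists and the markers were chosen with earlier results of these data known. Symbols were matched for 36340 of 38202 identifiers, and Hjv through its synonym Hfe2.

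Differential expression came from edgeR 4.0.16 in R 4.3.3 (TMM scaling, filterByExpr, quasi-likelihood test, Benjamini-Hochberg over the genes tested, threshold 0.05), within the 22 libraries of a tissue, the 22 WT libraries or all 44. Intervals of fold changes used the t quantile at the degrees of freedom of that test. The procedure was tested on simulated data. CPM in text and figures is TMM-scaled, log2 CPM used a prior count of 2, and the pooled liver to muscle ratios used unscaled totals. Relations over mice used two-sided permutation tests with 100000 resamples (scipy 1.17.1). Fitted fold changes of genes near 0 in muscle depend on the prior count, so reads and ratios are given for Hamp and Hamp2. Sequences came from GENCODE M21 transcripts and RefSeq promoters (no entry was used for Trf, Slc40a1 and Slc39a14).

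The alternatives were DESeq2 1.42.0, limma-voom (limma 3.58.1), a minimum of 10 counts in each library or no filter, library size alone, gene length removed (loess, span 0.3), the RPKM table with pseudocounts of 0.1 and 1, the animal as replicate block and omission of 4 livers. Adipoq relations and covariate were added after seeing the data. Total counts per library ranged from 20150712 to 33733103 in WT liver, 20517872 to 31084170 in KO liver, 21810239 to 33807727 in WT muscle and 21703841 to 35218243 in muscle labelled KO. A gene with 0 counts in a library was taken to have an expected count of up to 3. Each replicate was a separate mouse, 0 pairs of libraries were identical, and the smallest chi-square per gene within a group was 4.26. The same animal number in both tissues marks the same mouse. Deviations from the group means of a mouse's liver and muscle correlated across genes by 0.102 on average (range -0.026 to 0.26, 22 mice).

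The named genes were the 10 members, Slc16a13, up to 4 genes with the smallest p per pathway list and comparison, and the 5 genes most correlated with Hamp and with Tfrc. The sequencing pools were not used here. A gene named by this rule was left out and is not reported here.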

Additional observations from a re-analysis of the deposited data

Results flagged for a closer look

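The only result that met a criterion for a closer look was that of the deleted gene. The KO against WT difference of Slc16a13 in liver minus that in muscle was -6.08 on the log2 scale (SE 0.38, adjusted p = 5.9e-16 for the interaction term, edgeR's quasi-likelihood test), since its reads fell in all 11 KO livers and did not fall in the muscle libraries labelled KO. None of the 10 iron genes met a criterion.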

How the results depend on the processing

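The 9 liver and 1 muscle calls among the members between WT tissues kept their side of the threshold and their direction in the alternatives run, except that Hamp, Hamp2 and Tfr2 were not tested with a minimum of 10 counts. With gene length removed the tissue difference of Fth1 fell from 0.58 to 0.23 and that of Hfe from 1.52 to 0.97. In the genotype contrasts no member was called in the main fit or in any alternative, which in liver gave adjusted p-values from 0.319 to 0.999 across members. In KO against WT liver 3 genes were called, 6 with DESeq2 and 1 with a minimum of 10 counts. In muscle 1 gene was called, and 0 with limma-voom, a minimum of 10 counts, no filter or the RPKM table with either pseudocount, where 1090, 1063, 3016, 968 and 970 genes had an unadjusted p under 0.05. The interaction gave 1 gene, 44 with DESeq2, 3 with library size alone, 2 with gene length removed, with the RPKM table at either pseudocount and without the 4 livers of negative slope, and 0 with a minimum of 10 counts (1985 at an unadjusted p under 0.05). The cause was not tested.

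Signs changed for values that passed no test. Without the 4 livers the liver log2 fold changes were -0.30 for Hamp, -0.11 for Fth1, -0.14 for Ftl1, 0.11 for Slc39a14 and 0.087 for Slc40a1, and the interactions -0.10 for Fth1, -0.099 for Ftl1 and 0.092 for Slc40a1. With gene length removed the liver values were -0.21 for Hamp, -0.031 for Hamp2, -0.047 for Ftl1 and 0.039 for Slc40a1, and the interaction of Slc40a1 was 0.069. In the RPKM table the liver value of Hamp was -0.007 with either pseudocount. In muscle Fth1 was at 0.013 with Adipoq as covariate, 0.0075 with gene length removed, 0.0084 with library size alone and 0.0099 in the RPKM table, and Slc40a1 at 0.010 with library size alone and 0.012 in the RPKM table with either pseudocount.

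With the animal as replicate block the WT tissue contrast called 12674 genes against 12653 and the interaction 1 against 1, and no other call changed. Counts limit what can be said of Hamp and Hamp2 in muscle, where 0 to 4 reads per library were found. Leaving out each mouse in turn was not run, since every group held 11 mice.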

Other observations

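Acute phase genes, of which Saa1 was set beside Hamp, varied widely among the livers of both genotypes. The 7 acute phase transcripts listed summed to 3643 to 7485 CPM in WT liver (median 4549) and to 4477 to 11371 CPM in KO liver (median 4994). In muscle they summed to 4.99 to 14.1 CPM in WT libraries and to 3.54 to 16.6 CPM in those labelled KO. The 7 blood and erythroid markers summed to 223 to 332 CPM in WT liver and to 202 to 574 CPM in KO liver. Both KO liver sums include the 4 livers of negative slope. For the 5 blood markers tested the median log2 fold change in liver was 0.49 with all mice and -0.228 without these 4. For the 7 acute phase genes it was 0.562 and 0.198. The 5 markers of liver sinusoidal endothelium, the main source of Bmp6, were close in both genotypes, with 229 to 268 CPM in WT and 218 to 262 CPM in KO liver.

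In the muscle libraries labelled KO the relation of Fth1 with Ftl1 did not pass after adjustment (r = -0.765, permutation p = 0.00648, adjusted p = 0.0518, rho = -0.809, permutation p = 0.00431, adjusted p = 0.058, n = 11), and in WT muscle r was -0.189 (permutation p = 0.575).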
